A study of Mus musculus with 8 samples.

Results

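The aldehyde dehydrogenases described here were 10 genes, Aldh1a1, Aldh1a2, Aldh1a3, Aldh1a7, Aldh2, Aldh3a1, Aldh3a2, Aldh3b1, Aldh7a1 and Aldh9a1. They were chosen by name, as the rows of a table of read counts whose Entrez Gene ID maps to these symbols, and they made up 10 of 24594 genes in the table. All 10 were found. RNA sequencing had been done on luminal progenitors (LP) and on mature, differentiated luminal cells from the mammary gland of virgin mice, and the question was how gene expression differs between these populations. There were 4 LP and 4 mature libraries.

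Every library came from wild type C57BL/6J mice that had received no specific treatment. The glands were dissociated, and cells were sorted on EpCAM, CD49f, c-Kit and CD14 after staining with antibodies against the red blood cell, endothelial and immune markers TER-119, CD31 and CD45. LP are the c-Kit high luminal cells and mature cells the c-Kit low ones. The cDNA was amplified from very little RNA before the libraries were made. The labels give each group replicates 1 to 4 and do not say that these were separate animals. The methods of the study call the replicates of its RNA sequencing biological, but give a number per condition that differs from that of the libraries here. The p-values therefore measure the spread between these libraries. These are bulk libraries, in which fewer cells expressing a gene and less of its RNA per cell cannot be told apart.

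Aldehyde dehydrogenases oxidize aldehydes to carboxylic acids with NAD or NADP as cofactor, and the reaction passes through a covalent bond between the aldehyde and a cysteine of the active site. The enzymes ALDH1A1, ALDH1A2 and ALDH1A3 turn retinal into retinoic acid, the ligand of the nuclear retinoic acid receptors. Other members clear acetaldehyde, fatty aldehydes and aldehydes from lysine, choline and carnitine metabolism. ALDH activity in living cells is widely used to enrich stem and progenitor cells of the breast, and ALDH1A3 is one of the enzymes known to contribute to it.

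The coding sequence around that cysteine is shown for the members on which the results turn, Aldh1a3, Aldh2 and Aldh3a2, and for the closely related pair Aldh1a1 and Aldh1a7. Each line is 33 bases of the coding strand, 5′ to 3′, from the GENCODE vM21 transcripts of GRCm38 (mm10), and the capitals mark the codon of the cysteine.
Aldh1a3: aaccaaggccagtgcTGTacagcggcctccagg
Aldh2: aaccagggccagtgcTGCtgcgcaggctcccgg
Aldh3a2: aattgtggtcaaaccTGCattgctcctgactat
Aldh1a1: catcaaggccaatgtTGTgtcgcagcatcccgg
Aldh1a7: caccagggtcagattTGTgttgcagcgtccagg
The cysteine is codon 314 of 512 in Aldh1a3, 321 of 519 in Aldh2, 241 of 532 in Aldh3a2 and 303 of 501 in both Aldh1a1 and Aldh1a7. It was located as the only place in each reading frame that encodes glycine, glutamine or glutamate, any residue and then cysteine. Over their aligned coding sequences Aldh1a1 and Aldh1a7 were identical at 92.0% of bases, whereas Aldh1a3 and Aldh1a1 were identical at 69.9%, Aldh1a3 and Aldh2 at 67.6% and Aldh2 and Aldh3a2 at 61.6%. Close relatives can share reads. Of the 51-base stretches in the Aldh1a1 transcripts, 2.96% also occurred in Aldh1a7, and 7.24% of those of Aldh1a7 occurred in Aldh1a1, so a few reads could be assigned to either.

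The libraries held 5510863 to 7089597 counts on genes in LP and 4410049 to 7791593 in mature cells. Luminal markers were abundant in both fractions, with Krt8, Krt18 and Epcam together at 9942 to 10970 CPM (read counts scaled to a common library size) in LP and 19960 to 35190 CPM in mature cells. The sorted fractions matched their labels. Kit, Cd14 and Elf5 summed to 12860 to 19280 CPM in LP and 159 to 612 CPM in mature cells, although Kit and Cd14 encode sorting markers and are no independent check. Pgr, Esr1, Prlr, Areg and Foxa1, which mark mature hormone-sensing cells, summed to 304 to 992 CPM in LP and 4215 to 5947 CPM in mature cells. All 5 passed the test, but most of the sum was Prlr, and Esr1 and Areg overlapped between the groups. Markers of other cells were low, at 4.02 to 17.3 CPM in LP and 8.58 to 48.9 CPM in mature cells for 7 basal genes, and at most 7.80 CPM for 5 immune genes, of which Cd3e was at 0 in every library. The 3 endothelial genes summed to at most 8.48 CPM, with Kdr at 0 throughout, and the 3 adipocyte genes to at most 0.433 CPM, with Lep at 0. The 2 red blood cell genes in the table summed to 1.87 to 79.2 CPM in LP and 6.04 to 66.2 CPM in mature cells. The 4 fibroblast genes summed to 7.35 to 37.9 CPM in LP, but to 134 and 173 CPM in mature replicates 1 and 2 against 20.6 and 20.8 CPM in replicates 3 and 4, and most of this was Dcn.

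Aldh2 was higher in LP and Aldh3a2 was higher in mature cells. Aldh1a3, the most abundant member in every library except mature replicate 1, was higher in every LP library than in every mature library but missed the threshold narrowly. The test was the edgeR quasi-likelihood test, p-values were adjusted by Benjamini and Hochberg's method over 12816 genes at a threshold of 0.05, and 7 of the 10 members had enough counts to enter it. Of these 7, 1 passed as higher in LP and 1 as higher in mature cells, where 10.9% of all tested genes passed as higher in LP and 13.8% as higher in mature cells. In 2 of the 7, Aldh1a3 and Aldh2, all LP libraries exceeded all mature ones, and in 1, Aldh3a2, all mature libraries exceeded all LP ones. Over all tested genes the libraries separated in this way for 14.0% with LP higher and for 15.5% with mature cells higher. The median log2 fold change, LP over mature, was 0.32 over the 7 members and -2.85e-05 over all tested genes. The count of members higher in LP rose to 2 or 3 in several alternatives, in each of which Aldh1a3 was added. The number of all genes higher in LP also changed, from 1001 to 1794 over the alternatives against 1394 with the test above.

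**Figure D1:**
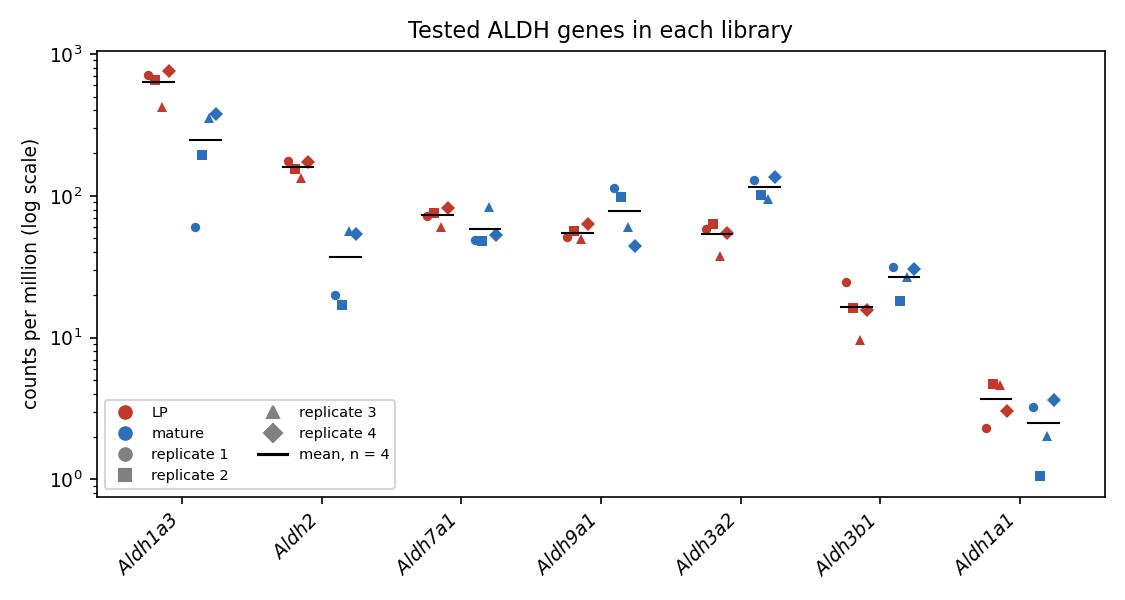
CPM on a log scale for the 7 tested members, with 1 point for each library, shaped by replicate number, and a bar at the mean of 4 libraries. The LP and mature points do not overlap for Aldh1a3, Aldh2 and Aldh3a2, and the 4 mature points of Aldh1a3 run from 60.0 to 378 CPM.

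Among the ALDH1A genes, Aldh1a3 (Entrez 56847, chromosome 7, 66390892 to 66427477, GRCm38) carried nearly all of the signal. It stood at 712, 659, 422 and 758 CPM in LP replicates 1 to 4 and at 60.0, 195, 354 and 378 CPM in mature replicates 1 to 4. The lowest LP library thus lay above the highest mature one. In CPM the spread was alike, with an SD of 149.5 in LP and 148.8 in mature cells, so that relative to its mean the mature group was the more variable. The log2 fold change, LP over mature, was 1.37 ± 0.459 (SE, n = 4 and 4), or 2.58-fold, with an edgeR adjusted p = 0.0512, which does not pass. An exact permutation test on the log2 CPM of this gene alone gave p = 0.0286 (two-sided, unadjusted), the smallest value that 4 against 4 libraries can give. Any gene whose groups do not overlap gets this value, so it only restates the separation above. Aldh2 and Aldh3a2 had the same value.

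The call on Aldh1a3 turned on the test, on the count filter and on single mature libraries. It passed with the DESeq2 Wald test (log2 fold change 1.38, adjusted p = 0.0054) and with the likelihood ratio test of edgeR (1.37, adjusted p = 0.0148). It also passed where only genes with at least 10 counts in every library were tested (1.38, adjusted p = 0.0321). Without mature replicate 1, the library with the least Aldh1a3, the log2 fold change was 1.05 and the edgeR adjusted p = 0.0295. Without mature replicate 3 it was 1.61 (edgeR adjusted p = 0.0396), and without mature replicate 4 it was 1.67 (edgeR adjusted p = 0.0416). It did not pass without LP replicate 1, 2, 3 or 4, at edgeR adjusted p-values of 0.0556 to 0.113, or without mature replicate 2 (edgeR adjusted p = 0.120). Nor did it pass with other scaling factors, with no filter on low counts or with a replicate block. Across 17 alternatives the log2 fold change ran from 0.81 to 2.38 and the adjusted p from 0.0054 to 0.120, with LP higher in each.

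**Figure D2:**
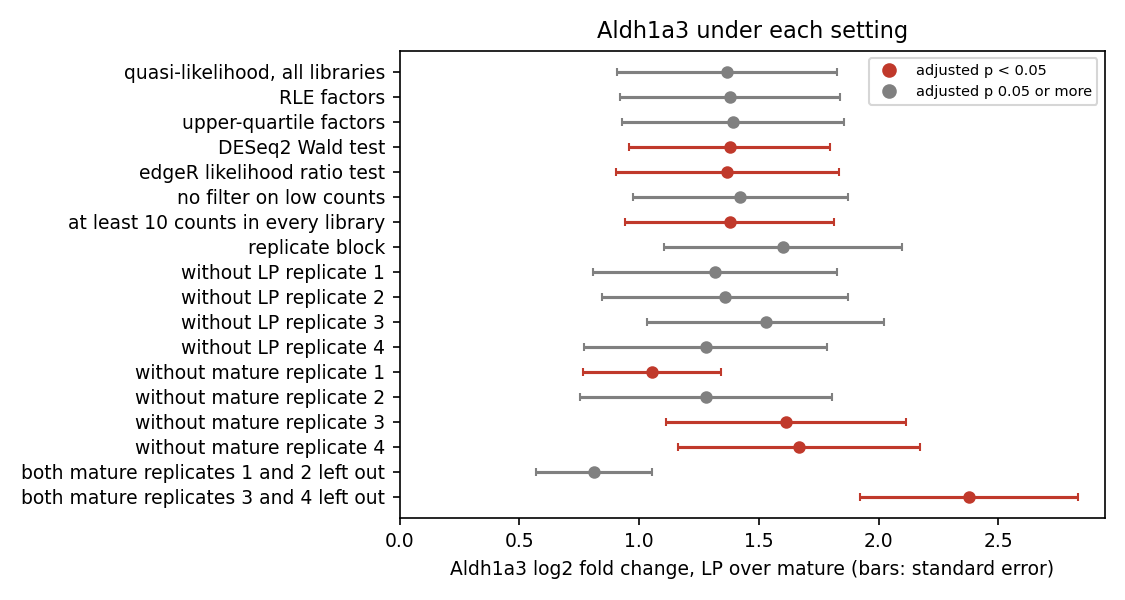
Log2 fold change of Aldh1a3, LP over mature, under the quasi-likelihood test with all libraries and under each of 17 alternatives, with standard errors as bars and red where the adjusted p is under 0.05. All values lie above 0, from 0.81 to 2.38, and 7 of the alternatives pass.

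Markers of other cells differed between the same mature libraries. Kit, Cd14 and Elf5 together stood at 184, 159, 612 and 337 CPM in mature replicates 1 to 4. The sum was thus higher in replicates 3 and 4, which had more Aldh1a3, than in 1 and 2. Within these pairs it did not follow Aldh1a3, which was higher in replicate 2 than in 1 and in 4 than in 3. Basal markers, at 8.58, 8.93, 48.9 and 26.7 CPM, and red blood cell markers, at 11.7, 6.04, 29.3 and 66.2 CPM, were also higher in mature replicates 3 and 4. The fibroblast marker sum, at 134, 173, 20.6 and 20.8 CPM, went the other way. Most of that sum was Dcn, and Col1a1, Col3a1 and Pdgfra did not separate these libraries. The part of any of these in the Aldh1a3 values was not tested.

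The other ALDH1A genes were scarce. Aldh1a1, the best known retinal dehydrogenase of this group (Entrez 11668, chromosome 19, 20492583 to 20643463), had 2.32, 4.74, 4.65 and 3.05 CPM in LP and 3.23, 1.05, 2.02 and 3.62 CPM in mature cells. These ranges overlapped, and the log2 fold change was 0.55 ± 0.556 (SE, edgeR adjusted p = 0.509). Aldh1a2, which makes retinoic acid in the embryo, had 1, 1, 1 and 0 counts in LP and 1, 0, 1 and 4 in mature cells. Aldh1a7 (Entrez 26358), on chromosome 19 beside Aldh1a1 at 20692953 to 20727556, had a single count, in mature replicate 2. Neither was tested, and a difference in them was not detectable at this depth, at which 3 counts, the most that a count of 0 allows, correspond to 0.416 to 0.788 CPM in a library. That limit covers counting error only.

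Aldh2, the mitochondrial enzyme that clears acetaldehyde (Entrez 11669, chromosome 5, 121566027 to 121593824), differed most among the members. It stood at 177, 154, 134 and 174 CPM in LP and at 19.8, 17.1, 56.9 and 53.5 CPM in mature cells. Every LP library had more than any mature library, and mature replicates 1 and 2 had the least. The log2 fold change was 2.11 ± 0.370 (SE), or 4.31-fold higher in LP (edgeR adjusted p = 0.00276), and Aldh2 passed in all 17 alternatives, at log2 fold changes from 1.55 to 3.15. On 130 bases, 2.54% of its exon length, Aldh2 overlaps the predicted gene Gm42879 on the opposite strand, from which reads cannot be told apart if strand was not used in counting.

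Aldh3a2, the microsomal fatty aldehyde dehydrogenase (Entrez 11671, chromosome 11, 61223417 to 61267528), went the opposite way. It stood at 58.5, 63.1, 37.4 and 55.1 CPM in LP and at 130, 102, 95.0 and 136 CPM in mature cells. The groups did not overlap, and here mature replicates 1 and 2 did not stand apart from 3 and 4. The log2 fold change was -1.11 ± 0.203 (SE), or 2.16-fold higher in mature cells (edgeR adjusted p = 0.00335). It passed in all 17 alternatives, at -1.20 to -0.97.

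Its neighbour and closest relative among the members, Aldh3a1, lies on chromosome 11 at 61208510 to 61218418 (Entrez 11670) and encodes the enzyme that is abundant in the cornea. It had 3, 0, 0 and 0 counts in LP and 10, 0, 6 and 0 in mature cells, too few to be tested. Aldh3b1, which oxidizes lipid-derived aldehydes (Entrez 67689, chromosome 19, 3913491 to 3930898), had 24.7, 16.1, 9.63 and 15.7 CPM in LP and 31.2, 18.1, 26.6 and 30.3 CPM in mature cells. Its groups overlapped, with a log2 fold change of -0.69 ± 0.318 (SE, edgeR adjusted p = 0.142), and 7.87% of its 51-base stretches also occurred in Aldh3b3.

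The remaining members act in the metabolism of amino acids and amines. Aldh7a1, which oxidizes an intermediate of lysine breakdown and betaine aldehyde, had 72.6, 75.8, 60.6 and 82.4 CPM in LP and 49.1, 48.1, 83.6 and 52.6 CPM in mature cells. Mature replicate 3 exceeded every LP library, and the other mature libraries lay below them all. The log2 fold change was 0.32 ± 0.211 (SE, edgeR adjusted p = 0.302), and without mature replicate 3 it was 0.57 and passed (edgeR adjusted p = 0.0347). Of the mature libraries, that replicate also had the highest sums of LP markers (612 CPM), basal markers (48.9 CPM) and endothelial markers (8.08 CPM). The part of any of these in the value was not tested. On 300 bases, 5.79% of its exon length, Aldh7a1 overlaps Phax on the opposite strand.

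Aldh9a1, which acts in carnitine synthesis and on the aldehyde precursor of GABA (Entrez 56752, chromosome 1, 167349963 to 167368530), had 50.8, 56.2, 49.6 and 63.0 CPM in LP. In mature cells it had 113, 97.7, 60.3 and 44.1 CPM. Mature replicates 1 and 2 lay above all LP libraries, replicate 3 lay within the LP range and replicate 4 below it. The log2 fold change was -0.52 ± 0.273 (SE, edgeR adjusted p = 0.195). With mature replicates 1 and 2 left out the sign turned, to 0.083 (edgeR adjusted p = 0.832), and with replicates 3 and 4 left out it was -0.89 and passed (edgeR adjusted p = 0.00654). These pairs of libraries were left out after the values had been seen. The fibroblast marker sum separated the same libraries, but through Dcn and not through Col1a1, Col3a1 or Pdgfra. The sums of LP, basal, endothelial and red blood cell markers were higher in mature replicates 3 and 4 than in 1 and 2. The part of any of these in the Aldh9a1 values was not tested.

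**Figure D3:**
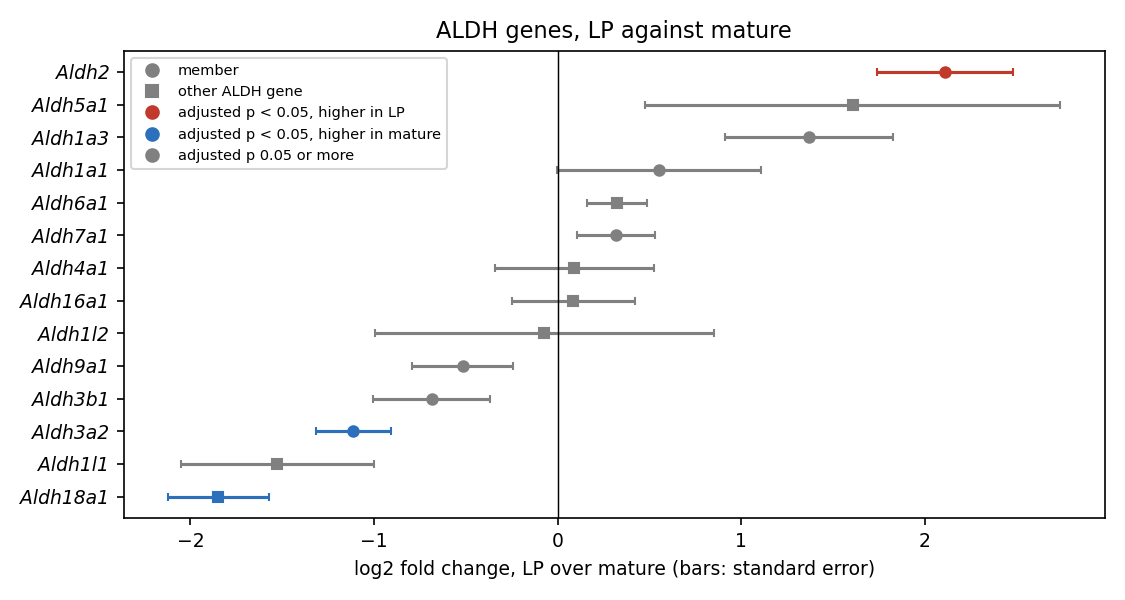
Log2 fold change, LP over mature, with standard errors as bars, for the 7 tested members (circles) and 7 other tested ALDH genes (squares), in red or blue where the adjusted p is under 0.05. Aldh2 lies at 2.11, Aldh3a2 at -1.11 and Aldh18a1 at -1.85, and no other gene passes.

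Levels were compared between genes per kilobase of merged exons (RPKM). In LP the order was Aldh1a3 at 138 ± 32.4 RPKM (SD, n = 4), Aldh2 at 31.2 ± 3.91, Aldh9a1 at 16.2 ± 1.80, Aldh7a1 at 14.1 ± 1.76, Aldh3a2 at 9.52 ± 2.005, Aldh3b1 at 8.08 ± 3.03 and Aldh1a1 at 0.748 ± 0.243 RPKM. The ranges of Aldh9a1 and Aldh7a1 overlapped, as did those of Aldh3a2 and Aldh3b1, and the other neighbours in this order were separate in all 4 LP libraries. With the longest transcript as length the LP order was the same, but Aldh7a1 (14.7 to 19.9 RPKM) and Aldh3a2 (12.1 to 20.4 RPKM) overlapped too. In mature cells the order was Aldh1a3 at 53.5 ± 32.2 RPKM (SD, n = 4), Aldh9a1 at 23.3 ± 9.42, Aldh3a2 at 20.6 ± 3.61, Aldh3b1 at 13.0 ± 2.92, Aldh7a1 at 11.3 ± 3.27, Aldh2 at 7.18 ± 4.15 and Aldh1a1 at 0.502 ± 0.237 RPKM. Here most neighbours overlapped, and gaps in the order lay only between Aldh3a2 and Aldh3b1 and between Aldh2 and Aldh1a1. With the longest transcript as length the mature order changed, with Aldh3a2 (37.4 RPKM) above Aldh9a1 (27.8 RPKM) and Aldh7a1 (14.1 RPKM) above Aldh3b1 (13.8 RPKM). With either length, Aldh2 stood second among the tested members in LP and sixth in mature cells.

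The makeup of the family was nearly constant over the LP libraries and varied over the mature ones. Aldh1a3 made up 64.0, 63.7, 58.5 and 65.5% of the summed RPKM of the 10 members in LP, and 13.1, 38.1, 50.3 and 52.7% in mature cells. In mature replicate 1 Aldh9a1 had 33.5% and Aldh3a2 23.2%, both more than Aldh1a3. The order of these shares depended on the length used, since with the longest transcript Aldh9a1 had 29.5% and Aldh3a2 31.2%. In mature replicates 2, 3 and 4 the share of Aldh9a1 was 26.0, 11.7 and 8.39%. The summed level was 241, 224, 156 and 251 RPKM in LP and 99.4, 111, 153 and 156 RPKM in mature cells, so that LP replicate 3 lay within 1 RPKM of the highest mature library. These shares are a description and were not tested.

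**Figure D4:**
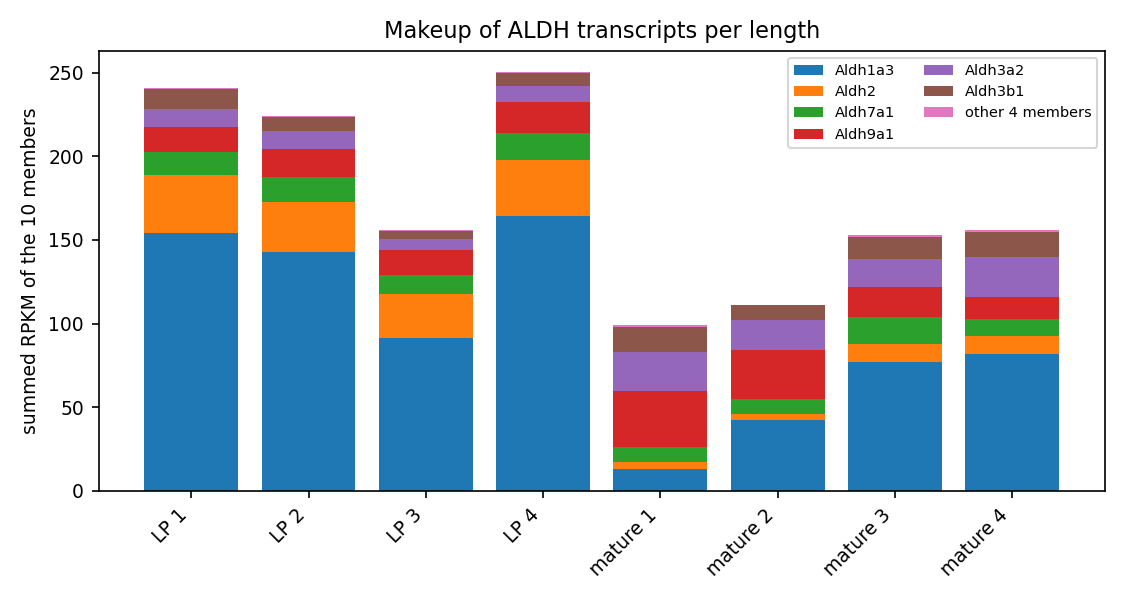
Summed RPKM of the 10 members in each library, stacked by gene, with 4 scarce members pooled. The Aldh1a3 part fills 58.5 to 65.5% of each LP bar and 13.1 to 52.7% of each mature bar.

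Of 11 further ALDH genes, 7 were tested, 0 passed as higher in LP with edgeR and 1 as higher in mature cells. Over all tested genes the shares were 10.9% and 13.8%. The count higher in LP was also 0 at an unadjusted p under 0.05, with DESeq2 and with the likelihood ratio test. With 7 tested genes, a count of 0 cannot be told from a share of 10.9%. The gene higher in mature cells was Aldh18a1, which encodes a synthase of proline precursors rather than an aldehyde-oxidizing enzyme. It had 197, 146, 258 and 266 CPM in LP and 542, 738, 1149 and 684 CPM in mature cells, a log2 fold change of -1.85 ± 0.272 (SE, edgeR adjusted p = 0.00118). Aldh1l1, the cytosolic formyltetrahydrofolate dehydrogenase, had no overlap between groups but a log2 fold change of -1.53 ± 0.524 (SE) that did not pass (edgeR adjusted p = 0.0559), though it did with DESeq2 and the likelihood ratio test. Aldh3b2, an untested relative of Aldh3b1, had 17.2 and 14.2 CPM in mature replicates 1 and 2 and at most 2.71 CPM in any other library.

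Retinol reaches Aldh1a3 by uptake, storage as esters and oxidation to retinal, and its product is carried by binding proteins and broken down by CYP26 enzymes. Among the genes for uptake and storage, Dgat1, an acyltransferase that can esterify retinol, was higher in LP by 0.98 on the log2 scale (± 0.290 SE, edgeR adjusted p = 0.0313), and did not pass without LP replicate 2, 3 or 4, at adjusted p-values up to 0.0836. Stra6 and Lrat, the retinol transporter and the main esterifying enzyme, had at most 9 counts in any library.

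Of 12 genes for oxidoreductases of retinol and retinal, 7 were tested, and 2 passed as higher in mature cells, where 13.8% of all tested genes did so. Rdh10, a main retinol dehydrogenase on the way to retinoic acid, had 35.0, 38.0, 27.4 and 35.2 CPM in LP and 262, 173, 65.4 and 30.9 CPM in mature cells. Mature replicate 4 lay within the LP range, and replicates 1 and 2, where Aldh1a3 was lowest, had the most. The log2 fold change was -1.97 ± 0.531 (SE, edgeR adjusted p = 0.0210), and it did not pass without any 1 of the LP libraries or without mature replicate 1 or 2, at edgeR adjusted p-values of 0.0520 to 0.0607. Its log2 fold change was -2.02 to -1.88 without any 1 LP library, -1.79 without mature replicate 2 and -1.37 without mature replicate 1. Rdh13, a mitochondrial retinol dehydrogenase, was at -0.79 ± 0.242 (SE, edgeR adjusted p = 0.0356) and did not pass without LP replicate 1, 2, 3 or 4 or mature replicate 1 or 2, at adjusted p-values up to 0.113. Dhrs3, which reduces retinal back to retinol, ran from 343 to 535 CPM in LP and from 245 to 616 CPM in mature cells, with a log2 fold change of 0.14 ± 0.297 (SE, edgeR adjusted p = 0.770).

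Of 6 genes for the binding and breakdown of retinoic acid, 2 were tested and both passed as higher in LP, where 10.9% of all tested genes did so. With 2 tested genes this list is too short to compare with that share. Crabp2, which delivers retinoic acid to its receptors, had 149, 177, 90.0 and 225 CPM in LP and 16.9, 18.4, 25.4 and 34.0 CPM in mature cells. Its log2 fold change was 2.75 ± 0.315 (SE, edgeR adjusted p = 0.000432). Fabp5, a fatty acid-binding protein that also binds retinoic acid, had 49.2, 57.9, 56.0 and 38.0 CPM in LP and 0.562, 0, 4.33 and 2.56 CPM in mature cells, with a log2 fold change of 4.66 ± 0.652 (SE, edgeR adjusted p = 0.000928). Without mature replicate 3 the value for Fabp5 was 5.45. In both genes every LP library exceeded every mature library, as in Aldh1a3 and in 14.0% of all tested genes. Cyp26a1 and Cyp26c1 had no count in any library, and Cyp26b1 had 7 counts in LP replicate 2 and none elsewhere.

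The 5 tested receptor genes of 6 listed, Rara, Rarb, Rarg, Rxra and Rxrb, all overlapped between the groups, and 0 passed in either direction with edgeR. Over all tested genes 10.9% passed as higher in LP and 13.8% as higher in mature cells. The count of receptor genes was also 0 at an unadjusted p under 0.05, with DESeq2 and with the likelihood ratio test. With 5 tested genes, a count of 0 cannot be told from the shares above. Rara was the nearest, with a log2 fold change of -0.72 ± 0.333 (SE, edgeR adjusted p = 0.140). Among the genes known as targets of the receptors in other tissues, Crabp2, described above, passed as higher in LP. Of those higher in mature cells, 1 passed, Tgm2, transglutaminase 2, at 169 to 214 CPM in LP and 294 to 586 CPM in mature cells, with a log2 fold change of -1.31 ± 0.212 (SE, edgeR adjusted p = 0.00183). Of the Tgm2 stretches, 18.6% also occurred in other genes.

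**Figure D5:**
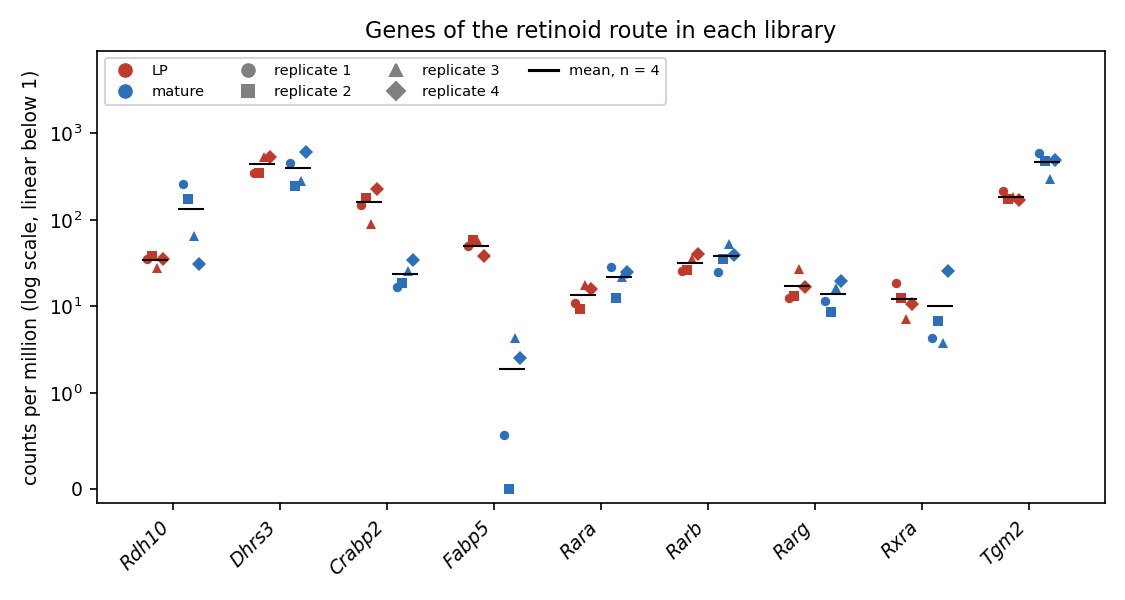
CPM for genes of the retinoid route, on a log scale that is linear below 1, with 1 point for each library, shaped by replicate number, and a bar at the mean of 4 libraries. Crabp2 and Fabp5 lie higher in all LP libraries, Tgm2 lies higher in all mature libraries, and the receptor genes overlap.

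Around Aldh2 and Aldh3a2, the lists of enzymes that make or remove their substrates held members of both directions. Of 6 alcohol dehydrogenase genes 2 were tested, and Adh1 passed as higher in mature cells, at 2.31 to 6.30 CPM there and at most 0.575 CPM in LP. Its log2 fold change was -3.96 ± 0.938 (SE, edgeR adjusted p = 0.0117), which was -4.67 without LP replicate 2. Adh5 did not pass, at 59.6 to 73.5 CPM in LP and 68.0 to 86.8 CPM in mature cells. Of 10 genes of fatty aldehyde and sphingosine metabolism, all tested, 2 passed as higher in LP and 3 as higher in mature cells. Over all tested genes the shares were 10.9% and 13.8%. Far1 and Gnpat, which act early in ether lipid synthesis, were higher in LP, with log2 fold changes of 1.02 ± 0.210 (SE, edgeR adjusted p = 0.00609) and 1.07 ± 0.220 (SE, edgeR adjusted p = 0.00588).

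On the same side as Aldh3a2 lay Phyh, the phytanoyl-CoA hydroxylase of the peroxisome, at 66.5 to 87.4 CPM in LP and 212 to 372 CPM in mature cells, with a log2 fold change of -2.02 ± 0.194 (SE, edgeR adjusted p = 0.000224). The sphingosine kinase gene Sphk2 was also higher in mature cells, at -1.64 ± 0.355 (SE, edgeR adjusted p = 0.00768), though 18.2% of its 51-base stretches occurred in other genes. Agps, an ether lipid synthase, was at -0.64 ± 0.205 (SE, edgeR adjusted p = 0.0439) and lost its call in 12 of 17 alternatives, among them those without LP replicate 1, 2 or 4 or mature replicate 1, 2 or 4, at adjusted p-values up to 0.130. Sgpl1, the lyase that yields the fatty aldehyde oxidized by Aldh3a2, had 58.9 to 92.8 CPM in LP and 58.5 to 77.6 CPM in mature cells and did not pass (edgeR adjusted p = 0.773).

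Of 9 genes of lysine, betaine and carnitine metabolism around Aldh7a1 and Aldh9a1, 6 were tested, and 0 passed in either direction with edgeR. Aass, which starts the main route of lysine breakdown, had 5.31 to 12.2 CPM in LP and 0.422, 0.788, 5.20 and 4.07 CPM in mature cells (edgeR adjusted p = 0.0792). It was the 1 gene of this list with an unadjusted p under 0.05, and the 1 gene that passed with DESeq2 and with the likelihood ratio test. Over all 10 lists beside the members, 57 of 96 distinct genes were tested, 8 passed as higher in LP and 9 as higher in mature cells. These counts lie near the shares over all tested genes, 10.9% and 13.8%. The median log2 fold change over the 57 genes was -0.015.

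The genes whose log2 CPM followed that of Aldh1a3 most closely over the 8 libraries were Fndc4, Tspan8, Slc25a16, Tle6 and Kbtbd7, with Pearson r from 0.969 to 0.978. In mature replicate 1 Fndc4 and Kbtbd7 had 0 counts, Tspan8 4 and Slc25a16 13, against 102 for Tle6. Fndc4 overlapped between the groups and did not pass (edgeR adjusted p = 0.259). How far these r values rest on that library was not tested. Among the members, Aldh2 (r = 0.884) and Aldh7a1 (r = 0.736) were nearest to Aldh1a3, and Aldh3a2 (r = -0.648) and Aldh9a1 (r = -0.803) ran against it. These values describe 8 libraries that fall into 2 groups, and they carry no test.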

How the data were processed

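The authors trimmed the reads with cutadapt and aligned them to mm10 with Bowtie2, given as versions 4.2 and 2.3.5.1 in the submitters' processing notes, and deposited raw counts per gene under Entrez Gene IDs. The counting program, its annotation and its use of strand and of reads matching several genes are not given in the sources used here. RefSeq symbols of GRCm38 matched 24570 of 24594 IDs, and GENCODE vM21 gave positions and exon lengths, the latter for 21370 IDs.

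Counts were scaled by TMM and filtered with filterByExpr, which left 12816 genes, and LP and mature libraries were compared with the quasi-likelihood test of edgeR 4.0.16 in R 4.3.3 without a replicate block, and p-values were adjusted by the Benjamini-Hochberg method over these genes. CPM and RPKM use the TMM-scaled library sizes, with no added count, and log2 CPM for correlations and permutation tests used a prior count of 2. Alternatives comprised other scaling factors, DESeq2 1.42.0, the likelihood ratio test, other filters, a replicate block and each library left out. After the values had been seen, 2 fits leaving out pairs of mature libraries were added. The fits were tested on simulated counts.

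Named genes were all members, the genes of each list that passed (up to 6), those that a sentence on the retinoid route needed, and the 5 genes most like Aldh1a3. Aldh1l1, Aldh3b2, Adh5, Sgpl1 and Aass were named after their values had been seen, and Akr1a1, Aldh6a1 and Fads2 also fall outside these rules. Some listed genes are not reported here. The members and lists were chosen with earlier results of these data known.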

Additional observations from a re-analysis of the deposited data

Results flagged for a closer look

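Gaps within a group of 4 libraries were examined for 50 groups, of which chance alone would mark 2.5, and 2 were marked. Aldh7a1 in mature replicate 3 stood at 83.6 CPM, and its gap to the nearest mature library was 0.873 of the range of the group, more than the critical value of Dixon's test allows. Agps in LP replicate 3 stood at 71.9 CPM, with a gap of 0.938 of the range of the LP group.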

How the results depend on the processing

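Aldh2 and Aldh3a2 kept their direction and passed in all 17 alternatives, 2 of which were chosen after the values had been seen. The number of members higher in LP was 1 in 10 alternatives. It was 2 with DESeq2, with the likelihood ratio test and with a minimum of 10 counts per library, and 1 to 3 when single libraries were left out. Aldh1a3 passed with DESeq2 (1.38), the likelihood ratio test (1.37) and the count filter (1.38), and ran from 1.05 to 1.67 when single libraries were left out. Aldh7a1 ran from 0.25 to 0.57 in those fits. Leaving out both mature replicates 3 and 4 gave 3 members higher in LP, 2 higher in mature cells and 14 listed genes higher in LP, with log2 fold changes of 2.38 for Aldh1a3, 0.63 for Aldh7a1 and -0.89 for Aldh9a1. Leaving out both mature replicates 1 and 2 turned Aldh9a1 to 0.083 and left 4 listed genes higher in mature cells, and Adh1, Sphk2 and Rdh10 no longer passed. The cause of these changes was not tested. Genes called ran from 2179 to 3791 of those tested. With the longest transcript as length, Aldh1a3, Aldh2 and Aldh3a2 stood at 185, 41.3 and 17.3 RPKM in LP, and Aldh3a2 at 37.4 RPKM in mature cells.

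LP and mature libraries share replicate numbers, and each such pair also shares a number in its sample descriptions whose meaning is not stated, so a common source cannot be told from the labels. Deviations of libraries with the same number correlated at 0.0618 to 0.148, above 0.1 in 2 of 4 pairs. These low values do not settle whether the libraries are paired, and the main fit did not pair them. As a hint of a common source, 7 of 8 libraries correlated best with their own number. With a replicate block 3027 genes passed instead of 3161. Aldh1a3 was then at 1.60 (edgeR adjusted p = 0.0541), Aldh2 at 2.29 and Aldh3a2 at -1.12, and Agps, Cbr4, Dgat1 and Rdh13 no longer passed. Depth limits Aldh1a2, Aldh1a7 and Aldh3a1, which were not tested.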

Other observations

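Aldo-keto and carbonyl reductases, which reduce aldehydes and ketones to alcohols, were represented by 20 genes, of which 12 were tested. Of these, 2 passed as higher in LP and 1 as higher in mature cells, against 10.9% and 13.8% of all tested genes. Akr1e1, which reduces a sugar derivative, had 57.5, 76.2, 46.1 and 56.0 CPM in LP and 21.7, 26.5, 30.8 and 26.8 CPM in mature cells, a log2 fold change of 1.16 ± 0.209 (SE, edgeR adjusted p = 0.0032). Cbr4, a mitochondrial carbonyl reductase, was at 0.84 ± 0.245 (SE, edgeR adjusted p = 0.0291) and did not pass without LP replicate 2 or 4 or without mature replicate 1, 2 or 4, at edgeR adjusted p-values up to 0.0955. Cbr1, a cytosolic carbonyl reductase, was higher in mature cells, at 50.7 to 72.5 CPM in LP and 101 to 115 CPM in mature cells, with a log2 fold change of -0.85 ± 0.158 (SE, edgeR adjusted p = 0.00371). Akr1a1, the general aldehyde reductase and the most abundant of these genes in CPM, ran from 382 to 422 CPM in LP and from 402 to 446 CPM in mature cells (edgeR adjusted p = 0.689).

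Aldh6a1, which acts in valine breakdown, ran from 62.9 to 80.1 CPM in LP and from 49.9 to 66.2 CPM in mature cells (log2 fold change 0.32 ± 0.163 SE, edgeR adjusted p = 0.178). Fads2, a fatty acid desaturase, had 95.8, 102, 241 and 203 CPM in LP and 3.80, 8.14, 103 and 29.5 CPM in mature cells, and did not pass (edgeR adjusted p = 0.0761).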
